A study of Mus musculus with 95 samples.

Results

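The redox genes Txnip, Txn1, Txnrd1, Prdx1, Prdx2, Prdx6, Sod1, Sod2, Gpx1 and Cat were followed across blood stem and progenitor cells of the mouse. They were taken by name, as 10 of the 53465 gene entries of a bulk RNA-seq count table, and all 10 were tested in every comparison. The table held 95 libraries in 27 groups. Haematopoietic stem cells (HSC) and 2 sorted progenitor populations, HPC-1 and HPC-2, were each taken at 8 times after transplant, at weeks 3 to 6 and then at weeks 8, 10, 13 and 16 (3 libraries per population and week), and at steady state (8 HSC, 8 HPC-1 and 7 HPC-2 libraries).

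The transplanted groups came from recipients given 900 cGy of irradiation and 8000 LSK cells, which lack lineage markers and carry cKit and Sca-1. The steady-state groups came from untreated mice. All libraries carry the strain label B6.SJL and the same age label of 8 to 12 weeks, which does not say whether it is the age at transplant or at harvest. Whether libraries of one group are from different animals is not in the labels, so the p-values measure the spread between these samples, which may be technical. The sort gate is described once for all populations, as CD48-negative and CD150-positive. Cd48, which encodes the first of those surface proteins, had median levels of 15.0 and 2.72 CPM, the count scaled to the library total, in transplanted and steady-state HSC, of 979 and 1095 CPM in transplanted and steady-state HPC-1, and of 483 and 360 CPM in transplanted and steady-state HPC-2. The 3 names were therefore used as the titles give them. Slamf1, which encodes CD150, had a median of 95.4 CPM in transplanted and 68.1 CPM in steady-state HSC and was at 0 in 16 of 24 transplanted and 6 of 8 steady-state HPC-1 libraries.

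Cells keep their proteins reduced and their peroxides low with linked enzyme systems. Superoxide dismutases turn superoxide into hydrogen peroxide, and catalase, glutathione peroxidases and peroxiredoxins remove it. Thioredoxin recycles the peroxiredoxins and is itself recycled by thioredoxin reductase with NADPH, while Txnip binds and inhibits thioredoxin and also limits glucose uptake. Blood stem cells are known to be sensitive to reactive oxygen, and loss of Txnip in mice is known to impair their quiescence.

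Library totals ran from 3551908 to 8492759 counts, with a median of 5628592, and 3827 to 15697 genes were detected per library. In 12 libraries fewer than 10000 genes were detected. They are called shallow below for their few detected genes, whatever their total counts. For example, HPC-2 steady-state replicate 6, with 6102 genes detected, held 8117353 counts. The shallow libraries were uneven across the groups. They were 2 of 24 transplanted and 3 of 8 steady-state HSC libraries and none of the 32 HPC-1 libraries. In HPC-2 they were 3 of 24 transplanted and 4 of 7 steady-state libraries. A further check found 6 pairs of libraries with nearly the same counts (chi-square per degree of freedom of 1.24 to 4.50, against 15.1 for the next pair), and 22 libraries were shallow, near-identical or both. In all 6 pairs the libraries carry different group labels, and 4 pairs join different populations, among them HSC steady-state replicate 1 with HPC-2 week 13 replicate 1. Which label of a pair belongs to the counts cannot be told apart here, and all were kept under their own labels. The main Txnip results are also given without them. Fewer cells of a type and less RNA per cell cannot be told apart in bulk libraries.

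Txnip, in HSC, was the only listed gene for which a transplant comparison passed the edgeR test. The promoter of Txnip is shown because it carries 2 copies of CACGAG, 5 bases apart, a paired motif of the kind known as a carbohydrate response element, through which glucose-sensing factors are known to act on this gene. It is given below with that of Prdx1, a gene known as a target of the stress factor Nrf2. Both sequences are from RefSeq on GRCm38.p6, plus strand, upstream of the annotated start of the gene. Capitals mark the paired motif with its spacer in Txnip, at chr3:96557707-96557956, and in Prdx1, at chr4:116685349-116685543, the reverse complement of TGACNNNGC, the core of the antioxidant response element.
Txnip: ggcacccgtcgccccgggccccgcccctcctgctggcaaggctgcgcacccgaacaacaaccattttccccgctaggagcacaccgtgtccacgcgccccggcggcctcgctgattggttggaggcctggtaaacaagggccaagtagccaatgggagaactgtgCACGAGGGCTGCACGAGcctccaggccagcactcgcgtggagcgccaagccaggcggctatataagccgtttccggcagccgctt
Prdx1: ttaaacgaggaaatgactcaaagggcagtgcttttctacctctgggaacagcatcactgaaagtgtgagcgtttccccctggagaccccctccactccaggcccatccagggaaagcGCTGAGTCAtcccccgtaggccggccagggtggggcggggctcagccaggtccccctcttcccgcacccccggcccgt

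In Txnip 68 bases lie between the motif and the end of the stretch shown, and in Prdx1 69 bases do. The paired Txnip motif was searched after the sequence had been seen and occurred, on both strands, in 1 of 32851 promoters of RefSeq (0.00304%). TGACNNNGC occurred in 3338 promoters (10.2%), among them those of Prdx1, Sod1 and 1 of the 3 Txnrd1 promoters. The E-box CACGTG occurred in 1978 (6.02%) and in none of the listed genes' promoters. Promoters were found for 9 of the 10 genes. These matches describe the sequence and were not tested for use in these cells.

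Per unit of summed exon length, Gpx1 was the most abundant of the listed messages. Levels in TPM, which scale the count to the summed exon length of each gene as well as to the library, had medians over all 95 libraries of 5128 for Gpx1, 1915 for Prdx1, 1899 for Txn1, 575 for Prdx2, 433 for Prdx6 and 123 for Cat. Txnip followed with 94.7 TPM, Sod1 with 59.5, Sod2 with 43.6 and Txnrd1 with 13.0. The summed exon length exceeds that of the usual coding transcript in several genes, for example 3970 against 641 bases in Sod1 and 3043 against 661 bases in Prdx1, so their values are low estimates. The order of the genes depends on the length used and was not worked out by coding transcript. All further levels are in CPM, which compare samples for a gene and not genes with each other. Reads of Txnip (chromosome 3, 96557957 to 96561883, plus strand) may also be shared with Gm15441, a gene annotated over it: the strand setting of the counting is not given in the sources used here. Gm15441 itself averaged 6.59 CPM in transplanted and 19.5 CPM in steady-state HSC. Other listed genes that overlap an annotated neighbour are Prdx2, Sod1 and Txnrd1, and Prdx6 has 1 named pseudogene.

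Txnip, the inhibitor of thioredoxin, was lower in HSC after transplant. It averaged 144 ± 86.4 CPM in the 24 transplanted libraries and 318 ± 161 CPM in the 8 steady-state libraries (SD). The weekly means of the transplanted HSC were 273 ± 41.2 CPM at week 3, 121 at week 4, 74.3 at week 5, 96.3 at week 6, 80.6 at week 8, 118 at week 10, 229 at week 13 and 164 at week 16 (n = 3 each). Txnip was thus lowest at weeks 5 to 8 and near the steady-state mean at week 3. The 9 libraries of weeks 5, 6 and 8 held 79.4, 67.3, 76.3, 27.4, 155, 106, 107, 60.6 and 74.8 CPM. The 8 steady-state libraries held 502, 245, 68.7, 537, 245, 437, 303 and 210 CPM. Every one of the 9 was below the steady-state median, and 7 of the 8 steady-state libraries were above all 9; the groups overlap through steady-state replicate 3, at 68.7 CPM, which is one of the shallow libraries. Over all weeks, 22 of 24 transplanted libraries were below the steady-state median.

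**Figure D1:**
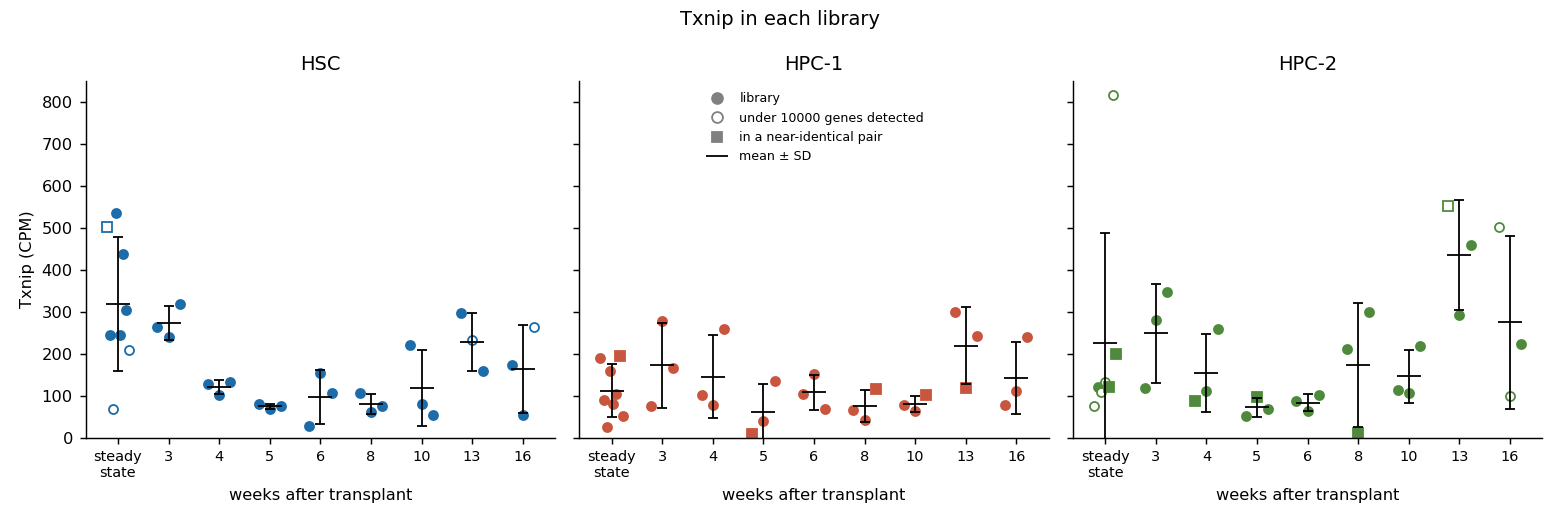
Txnip level (CPM, vertical axis) in each library of the 3 populations, at steady state and by weeks after transplant; points are libraries, open points libraries with under 10000 genes detected, squares members of near-identical pairs, and bars the mean ± SD (lower bars stop at 0). HSC libraries of weeks 5 to 8 lie between 27.4 and 155 CPM, below 7 of the 8 steady-state HSC libraries.

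With the edgeR quasi-likelihood test and Benjamini-Hochberg adjustment over all genes, the mean of the 8 transplanted HSC groups against steady state gave a log2 change in Txnip of -1.19 ± 0.29 (SE, adjusted p = 0.0221). Txnip was the only 1 of the 10 listed genes called (adjusted p under 0.05) in that comparison, where 5.31% of the 14209 genes tested were called and 741 of the 755 called genes were lower. Over all genes tested the median log2 change was itself -0.39, and that of the 10 listed genes was 0.11. DESeq2 (-1.39, adjusted p = 0.00259, 4.25% of genes called), limma voom with sample weights (-1.45, adjusted p = 0.000517, 2.3%) and edgeR with RLE scaling (-1.39, adjusted p = 0.0148, 6.49%) also called Txnip and no other listed gene. Without the shallow libraries the change was -1.42 (adjusted p = 0.0279 by edgeR, 5.68% of genes called), and without the libraries of near-identical pairs it was -1.10 (adjusted p = 0.0341, 5.26%). The edgeR call was lost without steady-state replicate 4 (-1.04, adjusted p = 0.0542) and with genes under a mean of 10 CPM left out (-1.19, adjusted p = 0.101), where 1 of 8228 genes was called (0.0122%). It was also lost with a block of replicate numbers (-0.84, adjusted p = 0.984). Numbers over 3 occur at steady state alone, so with that block the steady-state level rests on replicates 1 to 3, of which 1 and 3 are shallow. That setting cannot decide whether the call holds over all 8 steady-state libraries. The edgeR call was lost as well with the transplanted libraries taken as 1 group (-1.05, adjusted p = 0.864, 0.0% of genes called), also with a block of description numbers (-1.08, adjusted p = 0.516). With a covariate described further on it was lost too (-1.01, adjusted p = 0.0579, 1.21%). The description numbers run in sets of 12. Each set holds all libraries of 1 week and at most 1 steady-state library of each population, so week and set cannot be told apart.

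By window, Txnip in HSC differed from steady state by -0.77 ± 0.42 at weeks 3 and 4, by -1.77 ± 0.38 at weeks 5 to 8 and by -0.88 ± 0.37 at weeks 10 to 16 (log2 change ± SE). None passed the edgeR threshold (adjusted p = 0.417, 0.152 and 0.347). In these windows 0 of the 10 listed genes were called, where edgeR called 0.0633%, 0.0211% and 0.0% of all genes. The middle window was added after the levels had been seen. Its unadjusted p was 5.59e-05, and edgeR called Txnip there without the shallow libraries (-1.93, adjusted p = 0.0146, 0.243% of genes called) and without steady-state replicate 3 (-1.92, adjusted p = 0.0212). DESeq2 called 1 listed gene at weeks 5 to 8, Txnip (-2.11, adjusted p = 1.31e-05), where it called 5.49% of genes, and none in the other windows. Limma voom called Txnip in all 3 windows, with log2 changes of -0.89, -1.89 and -1.38 (adjusted p = 0.0474, 0.00275 and 0.0317), where it called 5.54%, 5.67% and 0.486% of genes. At weeks 5 to 8 it also called Txn1, Prdx1 and Gpx1, all higher after transplant. The slope of Txnip per doubling of weeks was 0.06 ± 0.20 (adjusted p = 1 by edgeR), with 0 listed genes called against 0.0774% of all genes. In that slope limma voom called 1, Gpx1 (0.18, adjusted p = 0.0466, 2.09% of genes called), and DESeq2 called 0.

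Marker genes of other cells also differed in level between these HSC libraries, and each list is given whole as the summed level in CPM, with the range over libraries. The 4 genes of multipotent progenitors had a median of 1164 CPM (912 to 1768) at weeks 5 to 8, above every steady-state library, against 327 CPM (105 to 668) at steady state. The 6 megakaryocyte and platelet genes had a median of 1900 CPM (1080 to 4066) at weeks 5 to 8 and 570 CPM (359 to 1326) at steady state. The 4 genes of the sort had a median of 660 CPM (481 to 886) at weeks 5 to 8 and 668 CPM (256 to 1097) at steady state. The erythroid list, with 9 of its 10 genes in the table, had a median of 2845 CPM (2018 to 3405) at weeks 5 to 8 and 4397 CPM (2541 to 8874) at steady state. The 10 neutrophil and monocyte genes had 3289 CPM (1021 to 12592) at weeks 5 to 8 and 4257 CPM (608 to 11777) at steady state. The 7 lymphoid genes had medians of 81.7 CPM (24.4 to 156) at weeks 5 to 8 and 57.9 CPM (0 to 445) at steady state, and Cd3e, the T cell receptor component, was at 0 in every HSC library. The 5 mast cell and basophil genes had 58.3 CPM (22.9 to 122) at weeks 5 to 8 and 10.9 CPM (0.220 to 98.9) at steady state, with Gzmb and Cma1 at 0 in every HSC library. The part of these markers in the lower Txnip was not tested.

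In HPC-1 and HPC-2 no difference in Txnip after transplant passed the test. Txnip averaged 126 ± 80.6 CPM in 24 transplanted and 112 ± 63.2 CPM in 8 steady-state HPC-1 libraries, a log2 change of -0.02 ± 0.34 (adjusted p = 0.996 by edgeR). It averaged 198 ± 150 CPM in 24 transplanted and 225 ± 263 CPM in 7 steady-state HPC-2 libraries, a log2 change of -0.25 ± 0.44 (adjusted p = 1). One steady-state HPC-2 library, replicate 6, held 816 CPM and the other 6 held 75.7 to 199 CPM. Without that library the change was 0.42, so its sign rests on 1 library. The weekly means nevertheless had features in common with HSC: week 5 was the lowest group in HPC-1 (61.6 CPM) and in HPC-2 (72.4 CPM), as it was in HSC. Each week was also 1 set of description numbers in all 3 populations. A feature shared at a week thus cannot be told apart from one shared by a set. The highest weekly mean was at week 13 in HPC-1 (219 CPM) and in HPC-2 (435 CPM). The median share of counts from short transcripts, described further on, was 40.3% at week 5 and 33.5% at week 13 in HPC-1. In HPC-2 it was 38.4% at week 5 and 26.7% at week 13. The part of library quality in these weekly means was not tested. Without the near-identical libraries week 8 was lowest in HPC-1 (54.2 CPM, with 88.1 CPM at week 5) and week 5 in HPC-2 (60.6 CPM), and week 13 was highest in both (269.7 and 376 CPM, n = 2 each). At week 5 the 3 libraries held 8.53, 40.5 and 136 CPM in HPC-1 and 51.8, 96.1 and 69.3 CPM in HPC-2. At week 13 they held 298, 118 and 241 CPM in HPC-1 and 553, 293 and 459 CPM in HPC-2. The 3 HPC-2 libraries did not overlap between the 2 weeks, while those of HPC-1 did.

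The difference between populations in the transplant effect was tested as an interaction in a fit of all libraries. For Txnip it was -1.14 ± 0.51 in HSC relative to HPC-1 (unadjusted p = 0.0286, adjusted p = 1 by edgeR), -0.93 ± 0.52 in HSC relative to HPC-2 and 0.21 ± 0.52 in HPC-1 relative to HPC-2 (both adjusted p = 1). None of the 10 genes was called in these 3 tests by edgeR, DESeq2 or limma voom, and edgeR called 0.00609%, 0.0% and 0.0% of all genes, DESeq2 3.95%, 8.44% and 9.16%, and limma voom 1.16%, 1.39% and 0.457%. Without adjustment 2, 1 and 3 of the listed genes had a p under 0.05 by edgeR, against 3.49%, 4.53% and 6.46% of all genes. The lower Txnip of transplanted HSC is therefore not shown to be particular to HSC.

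Among the 27 groups the highest mean of Txnip was that of HPC-2 at week 13 (435 CPM), followed by HSC at steady state (318 CPM), and the lowest was that of HPC-1 at week 5 (61.6 CPM). Without the near-identical libraries HPC-2 at week 13 (376 CPM) and HSC at steady state (292 CPM) still led, and HPC-1 at week 8 (54.2 CPM) was lowest. No 2 neighbours in that order were separated: all 26 pairs overlapped, and in 25 the gap was smaller than both SDs. HPC-2 at week 13 had 8105 to 10215 genes detected per library and a median short transcript share of 26.7%. That share was 34.3% in HSC at steady state and 40.3% in HPC-1 at week 5. The part of library quality in this order was not tested. At steady state the log2 difference in Txnip of HSC from HPC-1 was 1.35 ± 0.45 (adjusted p = 0.0987 by edgeR), which missed the threshold. Limma voom called it (1.59, adjusted p = 0.000277), as did edgeR without the shallow and near-identical libraries (1.69, adjusted p = 0.00775, 1.45% of genes called). It was 0.64 ± 0.46 between HSC and HPC-2 and -0.70 ± 0.45 between HPC-1 and HPC-2 (adjusted p = 0.428 and 0.389). Both turned on HPC-2 steady-state replicate 6, at 816 CPM: without it they were 1.28 and -0.062, and with the covariate described further on they were 1.11 and -0.063. After transplant the same 3 differences were 0.21 ± 0.25, -0.29 ± 0.25 and -0.50 ± 0.25 (adjusted p = 1, 0.788 and 0.395).

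Over the 27 group means of log2(CPM + 1), the genes most like Txnip among 8361 averaging 10 CPM or more were Adgrg1 (Pearson r of 0.84), Tmod3 (0.80), Nfe2 (0.77), Ahsa1 (0.76) and Dapp1 (0.75). Adgrg1 encodes an adhesion receptor known from stem cells and Nfe2 a factor of the erythroid and megakaryocytic lines. Of the listed genes, Txnrd1 came nearest (0.60, rank 66), and Txn1 (-0.71), Gpx1 (-0.64) and Prdx1 (-0.64) ran opposite to Txnip. These are descriptions over groups that share a library protocol, with no test.

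Txn1, Txnip's binding partner, did not pass the edgeR test on all libraries in any comparison. It averaged 901 ± 268 CPM in transplanted and 770 ± 244 CPM in steady-state HSC, 785 ± 243 and 862 ± 216 CPM in transplanted and steady-state HPC-1, and 792 ± 280 and 553 ± 205 CPM in transplanted and steady-state HPC-2. At weeks 5 to 8, where Txnip was lowest in HSC, all 9 HSC libraries held more Txn1 than the steady-state median, with 1212, 1106 and 1028 CPM at week 5, 1241, 1107 and 808 CPM at week 6 and 1166, 958 and 948 CPM at week 8. The 8 steady-state libraries ran from 557 to 1278 CPM, with 5 of them below all 9. The log2 change was 0.59 ± 0.21 (unadjusted p = 0.00762, adjusted p = 0.224 by edgeR); limma voom called it (0.79, adjusted p = 0.0101).

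Txnrd1, the cytosolic thioredoxin reductase, was low and uneven. It averaged 40.1 ± 39.1 CPM in transplanted and 51.3 ± 67.8 CPM in steady-state HSC, 53.7 ± 35.9 and 43.1 ± 34.3 CPM in transplanted and steady-state HPC-1, and 71.4 ± 75.4 and 125 ± 205 CPM in transplanted and steady-state HPC-2. It was at 0 in 1 steady-state and 1 transplanted HPC-2 library, where 3 counts, the most that a count of 0 allows, would be 0.558 and 0.520 CPM. That limit covers counting error only.

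Prdx1, the abundant cytosolic peroxiredoxin, averaged lower after transplant in HPC-1 and higher in HSC and HPC-2. The main edgeR fit called none of these differences. With no filter on low counts edgeR called that of HPC-1 (-0.68, adjusted p = 0.0282). It averaged 2837 ± 959 CPM in transplanted and 2416 ± 934 CPM in steady-state HSC (log2 change 0.22 ± 0.18, adjusted p = 0.652). In HPC-1 it averaged 2260 ± 800 CPM after transplant, against 3277 ± 1311 CPM at steady state (-0.67 ± 0.23, adjusted p = 0.132). In HPC-2 it averaged 2300 ± 1061 CPM after transplant, against 1725 ± 762 CPM at steady state (0.44 ± 0.31, adjusted p = 0.738). At weeks 3 and 4 the 6 HPC-1 libraries held 1594, 1769, 1484, 2443, 2527 and 1169 CPM, all below the steady-state median, and 6 of 8 steady-state libraries were above all 6. That change was -1.03 ± 0.32 (adjusted p = 0.230 by edgeR), and DESeq2 called it (-0.96, adjusted p = 0.0408, 7.15% of genes called). The interaction of HPC-1 relative to HPC-2 was -1.11 ± 0.37 (adjusted p = 0.381). With the short transcript share as a covariate, described further on, the average changes of Prdx1 were 0.11 in HSC, -0.18 in HPC-1 and 0.027 in HPC-2, and the interaction was -0.24.

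Prdx2, known from red cells, and Prdx6, a peroxiredoxin that draws on glutathione, had, after Gpx1, the smallest spread over the 95 libraries relative to their means. Prdx2 averaged 643 ± 138 and 686 ± 163 CPM in transplanted and steady-state HSC, 817 ± 166 and 821 ± 80.4 CPM in transplanted and steady-state HPC-1, and 676 ± 192 and 617 ± 356 CPM in transplanted and steady-state HPC-2. Prdx6 averaged 788 ± 223 and 775 ± 242 CPM in transplanted and steady-state HSC, 808 ± 147 and 683 ± 117 CPM in transplanted and steady-state HPC-1, and 959 ± 238 and 916 ± 415 CPM in transplanted and steady-state HPC-2. In HSC the average log2 changes were -0.02 ± 0.15 for Prdx2 and 0.07 ± 0.15 for Prdx6. After transplant the difference in Prdx2 of HSC from HPC-1 was -0.35 ± 0.21 (adjusted p = 0.527 by edgeR); edgeR called it without the shallow libraries (-0.29, adjusted p = 0.0386, 8.67% of genes called), and limma voom called it (-0.33, adjusted p = 0.0292).

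Sod1, the cytosolic superoxide dismutase, averaged 110 ± 27.5 CPM in transplanted and 117 ± 83.0 CPM in steady-state HSC, 99.5 ± 29.9 and 88.2 ± 19.0 CPM in transplanted and steady-state HPC-1, and 108 ± 53.5 and 67.4 ± 34.1 CPM in transplanted and steady-state HPC-2. Within transplanted HPC-2 its weekly means were 122 to 134 CPM up to week 10, 47.0 ± 33.1 CPM at week 13 and 35.1 ± 29.4 CPM at week 16, a slope per doubling of weeks of -0.80 ± 0.39 (adjusted p = 0.238 by edgeR). All 3 shallow transplanted HPC-2 libraries were in those 2 groups, where 4903 to 10375 genes were detected per library and the median share of counts from short transcripts was 26.7% at week 13 and 30.8% at week 16. With that share as a covariate the slope was -0.54 ± 0.42. The part of library quality in the lower Sod1 was not tested. Sod2, the mitochondrial enzyme, averaged 175 ± 55.2 and 132 ± 62.7 CPM in transplanted and steady-state HSC, 180 ± 33.5 and 155 ± 27.6 CPM in transplanted and steady-state HPC-1, and 178 ± 56.0 and 287 ± 180 CPM in transplanted and steady-state HPC-2. Its HPC-2 steady-state mean rests in part on shallow replicate 1, at 687 CPM.

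Cat, which encodes catalase, was highest in HSC at week 3. The 3 libraries held 291, 276 and 284 CPM, all above every one of the 8 steady-state HSC libraries, which ran from 29.3 to 187 CPM. In HPC-1 the 3 libraries of week 3 held 232, 225 and 295 CPM, above 7 of the 8 steady-state libraries; the remaining one held 314 CPM. In HPC-2 they held 106, 135 and 248 CPM and overlapped the 7 steady-state libraries, which ran from 0 to 359 CPM. For weeks 3 and 4 together the log2 change was 1.01 ± 0.46 in HSC, 0.67 ± 0.38 in HPC-1 and -0.18 ± 0.79 in HPC-2 (adjusted p = 0.301, 0.485 and 1 by edgeR). With the short transcript share as a covariate these were 0.61, 0.13 and 0.054, so the value in HPC-2 changed sign. By weeks 5 to 8 the HSC mean was 85.6 ± 30.9 CPM, against 107 ± 55.3 CPM at steady state.

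**Figure D2:**
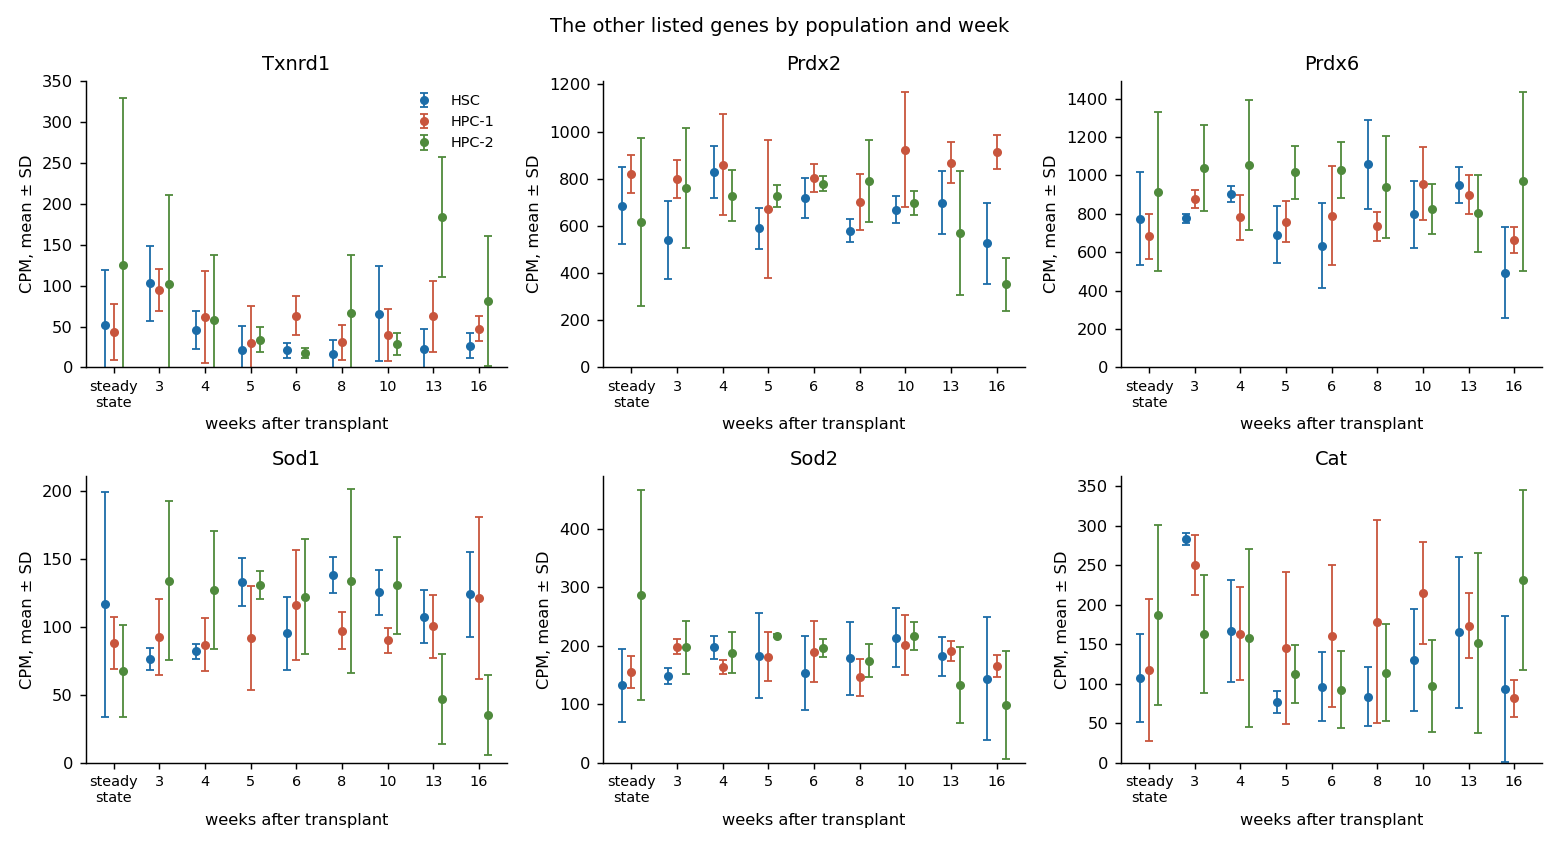
Level (CPM, mean ± SD, vertical axis; lower bars stop at 0) of Txnrd1, Prdx2, Prdx6, Sod1, Sod2 and Cat at steady state and by weeks after transplant, by population (3 libraries per point after transplant, 7 or 8 at steady state). Cat stands highest in HSC and HPC-1 at week 3, and Sod1 lowest in HPC-2 at weeks 13 and 16.

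Gpx1, the main glutathione peroxidase of the cytosol, had the smallest spread of the listed genes relative to its mean and was highest in HPC-1. It averaged 2797 ± 439 and 2630 ± 424 CPM in transplanted and steady-state HSC, 3369 ± 516 and 3463 ± 383 CPM in transplanted and steady-state HPC-1, and 2988 ± 758 and 2501 ± 815 CPM in transplanted and steady-state HPC-2. At steady state the 8 HSC libraries ran from 2158 to 3426 CPM, and the 8 HPC-1 libraries from 2915 to 3829 CPM; 6 of the HSC libraries were below all HPC-1 libraries. The difference of HSC from HPC-1 was -0.57 ± 0.18 at steady state (adjusted p = 0.0867 by edgeR) and -0.27 ± 0.10 after transplant (adjusted p = 0.127). Without HSC steady-state replicate 3, edgeR called the steady-state difference (-0.66, adjusted p = 0.0474). That of HPC-1 from HPC-2 was 0.69 ± 0.19 at steady state (adjusted p = 0.0551) and 0.25 ± 0.10 after transplant (adjusted p = 0.184).

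Those calls turned on the scaling of the libraries and on which libraries were kept. With TMM but without the shallow libraries, edgeR called Gpx1 in HSC relative to HPC-1 at steady state (-0.69, adjusted p = 0.0392). Without the shallow and near-identical libraries it called Gpx1 there (-0.67, adjusted p = 0.0276, 1.45% of genes called) and after transplant (-0.29, adjusted p = 0.0386). In that fit it also called Gpx1 in HPC-1 relative to HPC-2 after transplant (0.35, adjusted p = 0.0209). With the RLE size factors in place of TMM, edgeR called Gpx1 in HSC relative to HPC-1 at steady state (-0.30, adjusted p = 0.00868) and after transplant (-0.36, adjusted p = 1.04e-10), with 1.33% and 6.54% of all genes called. It also called Gpx1 after transplant in HSC relative to HPC-2 (-0.16, adjusted p = 0.00593) and in HPC-1 relative to HPC-2 (0.20, adjusted p = 0.000252), with 5.69% and 5.81% of all genes called. Its sign in each was that of the TMM fit. RLE moved the median change of all genes by -0.40 to 0.35 over the comparisons, and in HSC after transplant from -0.39 to -0.55. DESeq2 called Gpx1 in all 4 of these comparisons. Limma voom called it in HSC relative to HPC-1 at steady state (-0.67, adjusted p = 0.00747) and, after transplant, in HSC relative to HPC-1 (-0.28, adjusted p = 0.0143) and in HPC-1 relative to HPC-2 (0.28, adjusted p = 0.0219).

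Between the populations, then, edgeR with TMM called 0 of the 10 listed genes in each of 6 comparisons. At steady state it called 1.61% of 16410 genes between HSC and HPC-1, 5.9% between HSC and HPC-2 and 0.585% between HPC-1 and HPC-2. After transplant it called 6.01%, 5.39% and 5.94%. DESeq2 called 1 listed gene (Gpx1), 1 (Sod2) and 3 (Txnip, Prdx1 and Gpx1) at steady state, where it called 2.51%, 10.9% and 9.46% of genes. After transplant it called 1 (Gpx1), 2 (Prdx6 and Gpx1) and 1 (Gpx1), against 19.1%, 24.8% and 19.1% of genes. Limma voom called 2 (Txnip and Gpx1) between HSC and HPC-1 at steady state, against 8.57% of genes, and none in the other steady-state comparisons. After transplant it called 2 (Prdx2 and Gpx1) in HSC relative to HPC-1, against 23.2% of genes, none in HSC relative to HPC-2, and 3 (Txnip, Prdx2 and Gpx1) in HPC-1 relative to HPC-2, against 20.0%. Without adjustment, 3, 1 and 3 of the 10 had a p under 0.05 by edgeR at steady state and 1, 0 and 1 after transplant. Of all genes tested, 13.7%, 24.5% and 22.2% did at steady state and 14.4%, 16.1% and 13.6% after transplant. Txn1 (0.87 ± 0.27, adjusted p = 0.0628) and Prdx1 (1.17 ± 0.33, adjusted p = 0.0551) were, like Gpx1, close to the edgeR threshold in HPC-1 relative to HPC-2 at steady state, where 4 of the 7 HPC-2 libraries were shallow. Without the near-identical libraries edgeR called all 3, with log2 differences of 1.24 for Txn1 (adjusted p = 0.00424), 1.60 for Prdx1 (0.00161) and 0.96 for Gpx1 (0.00096), and 14.4% of genes in all. Without HPC-2 steady-state replicate 7 alone they were 1.07, 1.44 and 0.82 and also called (adjusted p = 0.0148, 0.00897 and 0.0088). Prdx1 and Gpx1 were also called without HPC-1 steady-state replicate 1 (1.27 and 0.75, both adjusted p = 0.0431) and without HPC-2 steady-state replicate 5 (1.23 and 0.79, adjusted p = 0.0493 and 0.0386). Without the shallow libraries edgeR called none of the 10, and 0.0153% of genes. For replicate 7 of steady-state HPC-2 the column name joins a pair of description numbers, and whether it pools 2 libraries is not given in the sources used here. With a block of replicate numbers edgeR called Prdx1 (1.14, adjusted p = 0.0427) and Gpx1 (0.70, adjusted p = 0.0411). With the short transcript share as a covariate it called none of the 3, with differences of 0.20 ± 0.12 for Txn1 (adjusted p = 0.434), 0.28 ± 0.16 for Prdx1 (0.407) and 0.29 ± 0.10 for Gpx1 (0.0745).

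**Figure D3:**
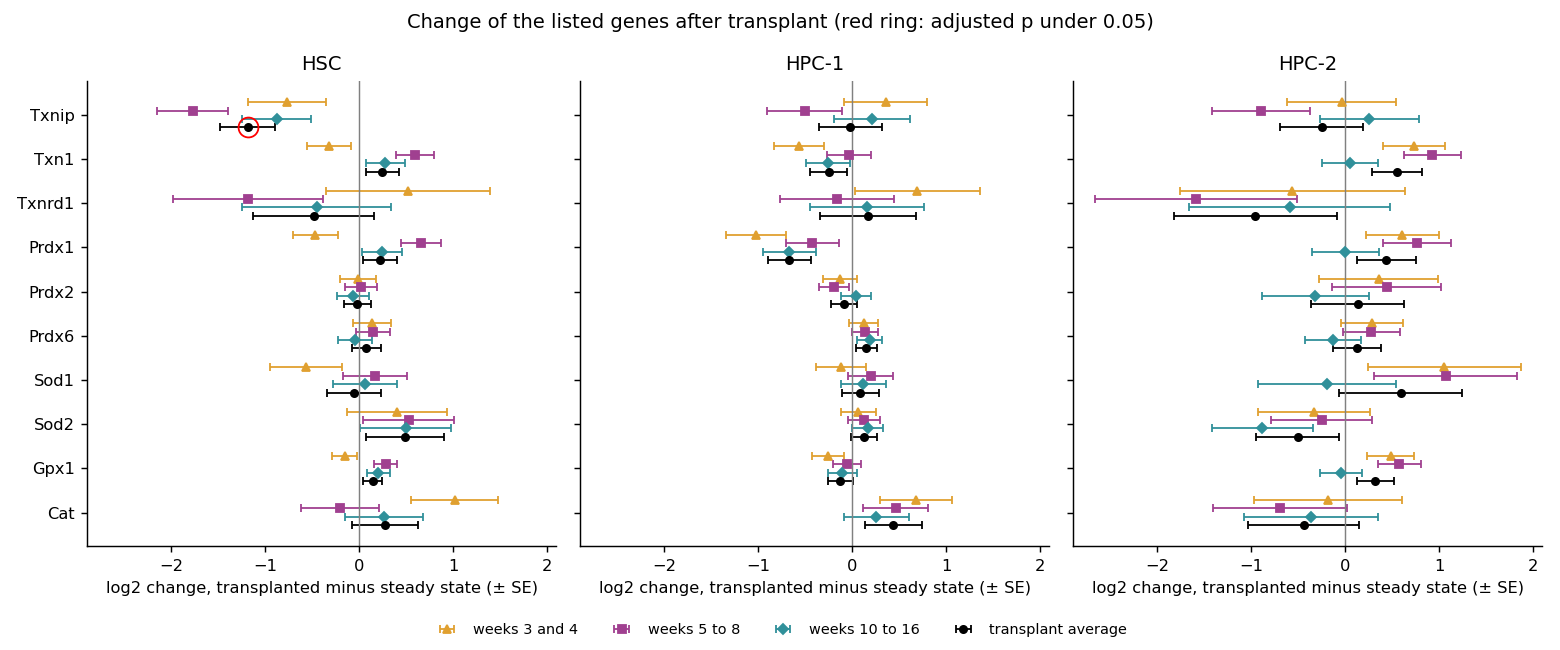
Log2 change from steady state (transplanted minus steady state, ± SE, horizontal axis) of the 10 listed genes in HSC, HPC-1 and HPC-2, by window and for the average of all weeks; the red ring marks an adjusted p under 0.05. The ring stands on Txnip in HSC alone, at -1.19, and Prdx1 lies below 0 in HPC-1 in every window and above 0 on average in HSC and HPC-2.

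Transplant comparisons of the progenitors gave no call either. In HPC-1 edgeR called 0 of the 10 listed genes for the average (1.39% of 13717 genes called), weeks 3 and 4 (0.0365%), weeks 5 to 8 (0.0%), weeks 10 to 16 (0.0146%) and the slope over weeks (0.0219%). In HPC-2 it called 0 for the average (1.15% of 13436 genes called), weeks 3 and 4 (0.0%), weeks 5 to 8 (0.0%), weeks 10 to 16 (0.0521%) and the slope (1.06%). Without adjustment, 1, 2, 0, 1 and 0 listed genes had a p under 0.05 in HPC-1 and 1, 1, 3, 0 and 4 in HPC-2. Of all genes tested, 14.6%, 12.5%, 8.19%, 10.6% and 7.63% did in HPC-1. In HPC-2 12.3%, 8.51%, 9.39%, 16.6% and 20.9% did. DESeq2 called 1 of them, Prdx1 at weeks 3 and 4 in HPC-1. Limma voom called 2, Prdx6 (-0.31, adjusted p = 0.0287) and Gpx1 (-0.39, adjusted p = 0.0263) in the HPC-2 slope, where it called 14.4% of genes. In that slope edgeR called Gpx1 without HPC-2 steady-state replicate 1 (-0.37, adjusted p = 0.0457), together with Prdx2 (-0.45, adjusted p = 0.0412), and without HPC-2 steady-state replicate 6 (-0.36, adjusted p = 0.0450). In HSC the listed genes with an unadjusted p under 0.05 were Cat at weeks 3 and 4, Txnip with Txn1, Prdx1 and Gpx1 at weeks 5 to 8, Txnip at weeks 10 to 16, and Txn1, Prdx1 and Gpx1 in the slope. Of all genes tested, 14.3%, 13.1%, 11.4% and 12.8% had such a p in these comparisons.

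Txn1, Prdx1 and Gpx1 varied together from library to library within groups, along with the share of counts that came from short transcripts. That share was summed over 4614 genes with a median coding transcript under 1000 bases, leaving the listed genes out. Over the 95 deviations of libraries from their group means it was correlated with log2(CPM + 1) of Txn1 (r = 0.92, rho = 0.89), Prdx1 (r = 0.88, rho = 0.88) and Gpx1 (r = 0.86, rho = 0.87), and inversely with that of Txnip (r = -0.59, rho = -0.48), Txnrd1 (r = -0.61, rho = -0.63) and Cat (r = -0.48, rho = -0.67). For Prdx2 r was 0.07 and for Sod2 -0.15; over the 73 libraries that are neither shallow nor near-identical, r for Prdx2 was 0.41. A two-sided permutation within groups gave p = 1e-05 for Txn1, Prdx1, Gpx1, Txnip and Txnrd1, the smallest that 100000 permutations can give, and adjusted p = 1.82e-05 over the 20 coefficients tested; Cat had p = 3e-05 for r. Without the 2 libraries farthest from the median share, r was 0.91, 0.87, 0.84 and -0.56 for Txn1, Prdx1, Gpx1 and Txnip. Over those 73 libraries it was 0.94, 0.94, 0.88 and -0.58. For Sod1 r was 0.36 and for Prdx6 -0.40 over all libraries, both with adjusted p = 0.0003 in that permutation test. The median coding transcript is 1051 bases in Txn1, 661 in Prdx1, 787 in Gpx1 and 2811 in Txnip. It is 641 bases in Sod1, 1500 in Prdx2, 1673 in Prdx6, 1696 in Cat, 3156 in Sod2 and 3325 in Txnrd1. The coefficients thus did not follow transcript length in every gene, Sod1 being the shortest of the 10.

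**Figure D4:**
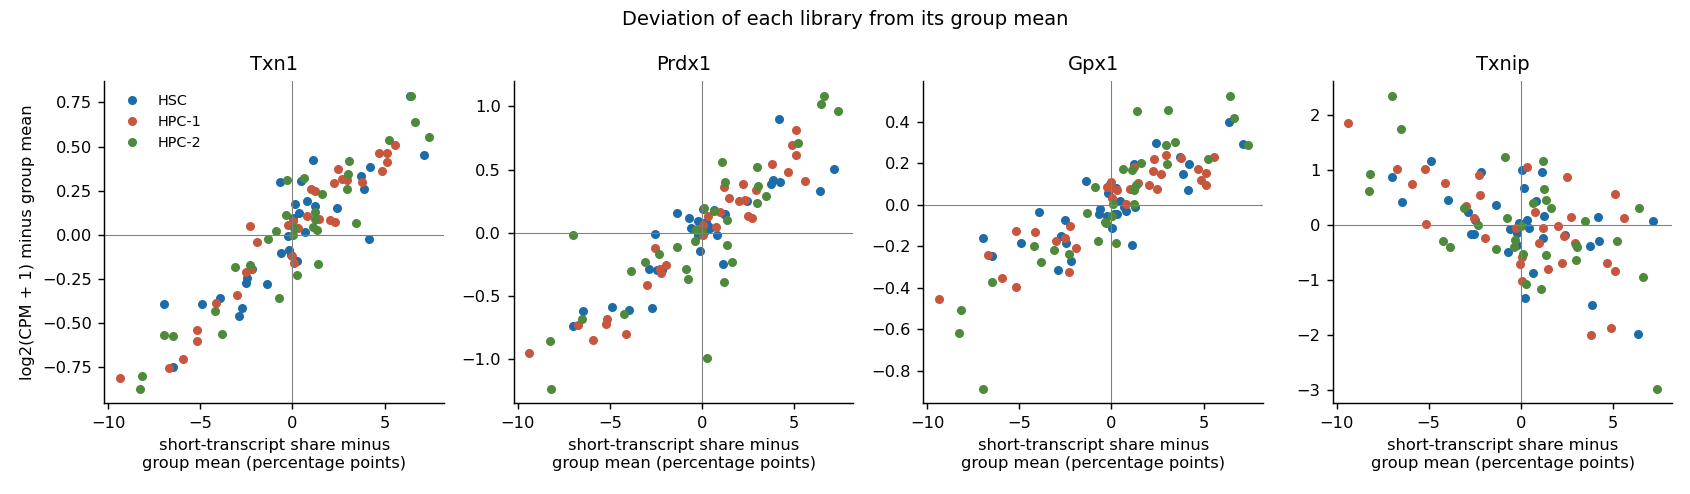
Deviation of each library from its group mean in log2(CPM + 1) of Txn1, Prdx1, Gpx1 and Txnip (vertical axes) against its deviation in the share of counts from short transcripts (percentage points, horizontal axes), for 95 libraries colored by population. Txn1, Prdx1 and Gpx1 climb along the axis with r of 0.92, 0.88 and 0.86, and Txnip declines with r of -0.59.

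The share also differed between groups. Its median was 31.7% in HSC at weeks 3 and 4, 39.8% at weeks 5 to 8, 39.7% at weeks 10 to 16 and 34.3% at steady state. In HPC-1 it was 31.6%, 37.3% and 34.9% in those windows and 37.4% at steady state, and in HPC-2 it was 37.0%, 37.1% and 30.8% and 31.4% at steady state. With the share as a covariate, an alternative chosen after the values had been seen, the change of Txnip in HSC was -1.01 ± 0.28 for the average (adjusted p = 0.0579 by edgeR) and -1.38 ± 0.37 at weeks 5 to 8. Prdx1 in HPC-1 at weeks 3 and 4 then differed by -0.19 ± 0.10, and Txn1 in HSC at weeks 5 to 8 by 0.23 ± 0.12. None of these changes of Txnip, Prdx1 and Txn1 was called with the covariate. Gpx1 was called in this fit in HSC relative to HPC-1 at steady state (-0.42 ± 0.09, adjusted p = 0.00387, 1.69% of genes called) and after transplant (-0.45 ± 0.05, adjusted p = 1.02e-09, 5.35% called). After transplant it was also called in HSC relative to HPC-2 (-0.22 ± 0.05, adjusted p = 0.00677, 3.84% called) and in HPC-1 relative to HPC-2 (0.24 ± 0.05, adjusted p = 0.0009, 6.48% called). Gpx1 thus had the same sign in each of these comparisons under TMM, RLE and the covariate.

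**Figure D5:**
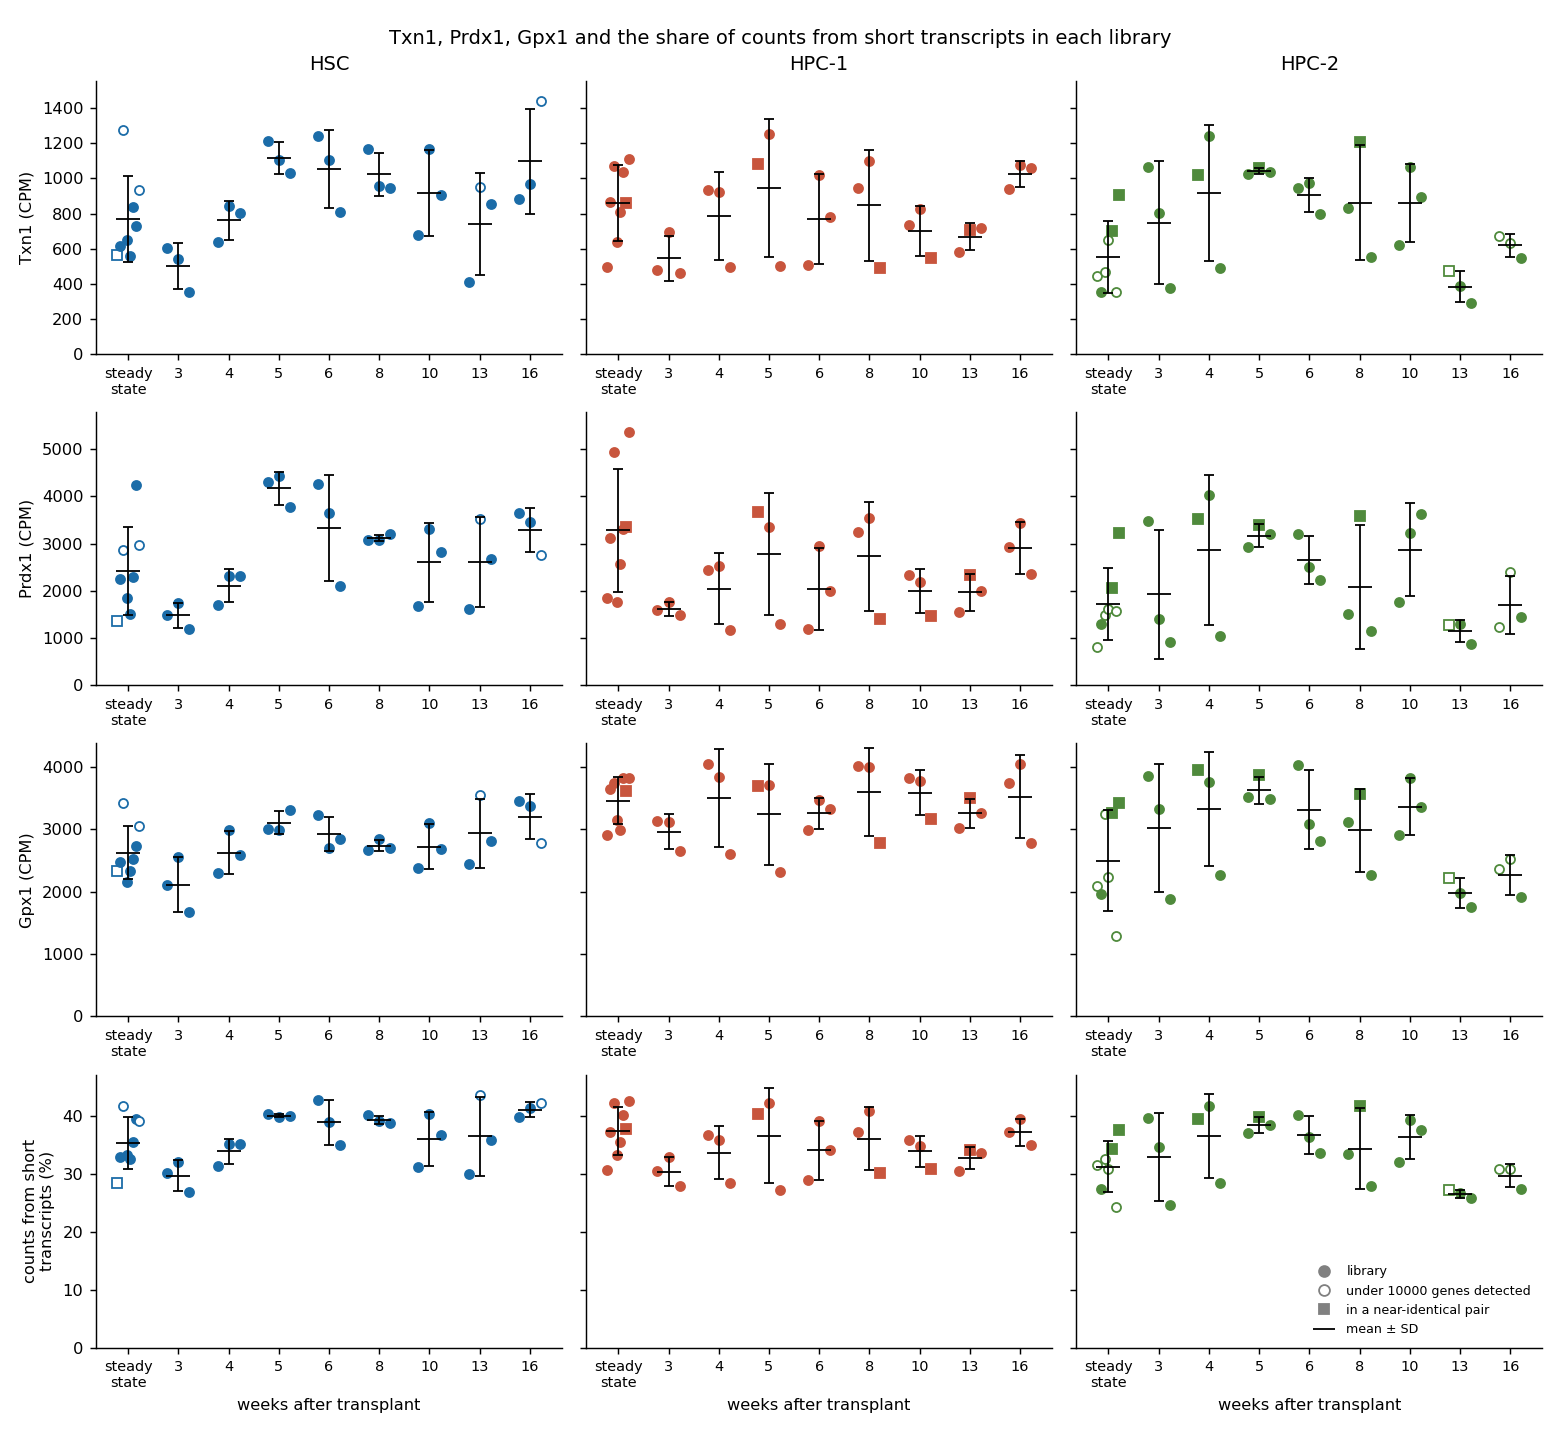
Levels (CPM) of Txn1, Prdx1 and Gpx1 and the share of counts from short transcripts (percent, bottom row) in each library of the 3 populations, at steady state and by weeks after transplant; symbols and bars (mean ± SD) are explained in the key. In HSC the 3 genes and the share are all low at week 3, where the 3 libraries hold 355 to 604 CPM of Txn1, and high at week 5, where they hold 1028 to 1212 CPM.

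A wider set of 66 redox genes, of which 61 to 64 were tested per comparison, showed few calls with transplant. In HSC 3 of 64 were lower on average and 0 higher, against 5.22% of all genes lower: Slc7a11, the cystine transporter, Hmox1, the haem-degrading oxygenase, and Ncf1, a subunit of the phagocyte NADPH oxidase. All were scarce. Hmox1 averaged 1.38 CPM with 19 of 24 libraries at 0 after transplant, against 10.8 CPM with 3 of 8 at 0 at steady state. Ncf1 averaged 3.75 CPM after transplant, against 15.8 CPM at steady state, and Slc7a11 averaged 0.980 CPM in transplanted and 2.33 CPM in steady-state HSC. No gene of the set was called in HSC by window or slope, or in any HPC-1 comparison. In the HPC-2 slope 1 of 61 was called, Foxo1, a forkhead factor of stress resistance (-3.64 ± 0.77 per doubling of weeks, adjusted p = 0.0483 by edgeR). That is 1.64% of the set, against 1.06% of all genes, and all 142 genes called in that slope were lower. The median slope of all genes was -0.34. All 3 shallow transplanted HPC-2 libraries were at weeks 13 and 16, and the part of library quality in the Foxo1 slope was not tested.

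Between transplanted populations edgeR called 7.81% of the set in HSC relative to HPC-1, 9.38% in HSC relative to HPC-2 and 9.38% in HPC-1 relative to HPC-2, near the 6.01%, 5.39% and 5.94% of all genes. HSC held more Prdx4, the peroxiredoxin of the endoplasmic reticulum, than HPC-1, with means of 453 ± 155 and 199 ± 92.5 CPM (1.19 ± 0.31, adjusted p = 0.00801 by edgeR). Taldo1, a transaldolase of the pentose phosphate path, was lower in HSC than in HPC-1 (383 ± 131 and 589 ± 156 CPM, adjusted p = 0.000435) and HPC-2 (656 ± 177 CPM, adjusted p = 7.28e-05). 3 NADPH oxidase genes had lower levels in HSC than HPC-1, namely Ncf1, Ncf4 and Rac2, the last with 516 ± 182 and 956 ± 240 CPM (adjusted p = 5.48e-05). The glutathione transferase Gstm1 was higher in HSC (403 ± 196 CPM, adjusted p = 0.00278) and in HPC-1 (369 ± 177 CPM, adjusted p = 0.00662) than in HPC-2 (140 ± 77.2 CPM), and Mgst1 was as well. In counts, 1 of 64 was higher and 4 lower in HSC relative to HPC-1, 2 higher and 4 lower in HSC relative to HPC-2, and 6 higher and 0 lower in HPC-1 relative to HPC-2. The remaining calls were Nqo1, Hmox1 and the arrestin-domain relative of Txnip, Arrdc2, lower in HSC than in HPC-2, and Mgst2, Fth1, Ncf1 and Rac2, higher in HPC-1 than in HPC-2.

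At steady state 0 of 64 were called between HSC and HPC-1. 4 were higher in HSC than in HPC-2 (Gpx3, Hmox1, Foxo1 and Cybb) and 2 higher in HPC-1 than in HPC-2 (Fth1 and Foxo1). These are 6.25% and 3.12% of the set, against 5.9% and 0.585% of all genes. Gpx3, Hmox1 and Cybb were at 0 in all 7 HPC-2 libraries and Foxo1 in 6 of them, so no fold change is given. Of those 7 libraries 4 were shallow, with 3827 to 9809 genes detected, and the part of that in the zeros was not tested. The median log2 differences of all genes from HPC-2 were 0.33 in HSC and 0.47 in HPC-1. After transplant Hmox1 was called in the opposite direction, lower in HSC than in HPC-2. Foxo1 averaged 21.6 ± 17.5 CPM in HSC, against 4.31 ± 4.37 CPM in HPC-1. Fth1, the ferritin heavy chain, averaged 2884 ± 453 CPM in HPC-1 and 1648 ± 579 CPM in HPC-2 (1.02 ± 0.25, adjusted p = 0.0440 by edgeR).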

How the data were processed

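The authors deposited a table of unnormalized read counts, with 1 column for each of the 95 samples. Per the submitters' processing notes, reads were handled with Trimmomatic 0.36, HISAT2 2.0.5, Picard and featureCounts on GRCm38 (mm10). The strand setting and annotation are not given in the sources used here. The protocol in the labels names SMART-Seq v4 cDNA and Nextera XT libraries.

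Groups were read from titles. 2 titles with 10k were placed at 10 weeks, and 1 HPC-2 library titled 3 weeks carries an untreated label. Genes passing edgeR's expression filter were tested with edgeR 4.0.16 (quasi-likelihood, TMM scaling, Benjamini-Hochberg over all genes, threshold 0.05), with 1 mean per group: each population alone for transplant comparisons, and all 95 libraries between populations. SE came from the F statistic. DESeq2 1.42.0 and limma 3.58.1 (voom) served as alternatives. Positions and lengths are from GENCODE M21. The procedure was also run on simulated counts with known changes in the HSC design. Those counts were drawn independently for each gene and library. The run therefore cannot tell how the tests behave with near-identical or shallow libraries, or with variation in the short transcript share.

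The members and lists were chosen with earlier results of these data known. All 10 genes are named in every comparison where called, Txnip in each, and genes of the wider set only where called; further values of Txn1, Prdx1, Gpx1 and Cat were added after their values were seen. The summed level of 1 marker list is not reported here.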

Additional observations from a re-analysis of the deposited data

Results flagged for a closer look

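Within the steady-state groups, the only ones with more than 3 libraries, a gene's highest or lowest library was taken as far apart when its gap to the next, over the group's range, passed Dixon's 95% value. Of 30 gene and group combinations 9 did, where chance gives about 1 in 20. All 9 values were in libraries with fewer than 10000 genes detected, 5 libraries in all.

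In HSC these were Txnip in replicate 3 (68.7 CPM), Txnrd1 in replicate 1 (217 CPM) and Sod2 in replicate 8 (0.439 CPM). In HPC-2 replicate 1, Prdx2 had 0.186 CPM, Prdx6 114 CPM, Sod2 687 CPM and Cat 0 CPM. In HPC-2 replicate 6, Txnip had 816 CPM and Sod1 0 CPM. The zeros allow up to 0.558 CPM of Cat and 0.370 CPM of Sod1. The part of library depth or complexity in these values was not tested.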

How the results depend on the processing

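For Txnip, 206 of 255 values under other settings kept their direction and side of the threshold, 10 gained the call, 5 lost it and 34 reversed, the last all in differences that were not called. For the number of listed genes called, 211 of 255 did not move. The cause of the changes was not tested. In fits of 1 population the replicate block rests the steady-state level on replicates 1 to 3. Numbers over 3 occur at steady state alone. In HSC the average count fell from 1 to 0 with the replicate block (Txnip -0.84, adjusted p = 0.984), a mean of at least 10 CPM, the short transcript share as covariate, and transplanted libraries as 1 group without and with a block of description numbers; leaving out 1 library gave 0 to 1 calls and -1.34 to -1.04. The replicate numbers were not taken to pair samples in the main tests. Within a population, same-number deviations of different groups correlated with medians of 0.0051, 0.036 and 0.0024 in HSC, HPC-1 and HPC-2. Of 108 pairs in each, 6, 31 and 15 were over 0.1. Between populations, same-number libraries of the same week correlated with medians of 0.024, 0.032 and 0.040 (2, 5 and 9 of 24 pairs over 0.1). At steady state the medians were 0.14, 0.049 and 0.016 (6 of 8, 2 of 7 and 1 of 7). The order is HSC with HPC-1, HSC with HPC-2 and HPC-1 with HPC-2. Other numbers gave medians of -0.016, -0.015 and -0.026, and at steady state of -0.026, 0.0033 and -0.0075. At steady state the 8 pairs of HSC with HPC-1 ran from 0.047 to 0.23. HPC-2 steady-state numbers are shifted: replicate 2, of description number 35, stands beside replicate 3 of HPC-1 and HSC (34 and 36). The steady-state values with HPC-2 thus cannot decide pairing, and the main tests did not model it.

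Counts of called genes that left 0 were as follows. A count whose share of all genes called is not given here or above cannot be set against that share. In HSC weeks 3 and 4, weeks 10 to 16 and the slope, voom gave 1 each; at weeks 5 to 8 DESeq2 gave 1, voom 4, the fit without shallow libraries 1 and that without shallow and near-identical libraries 1, and leaving out 1 library 0 to 1. The HPC-1 average gave 1 without a filter (Prdx1), and HPC-1 weeks 3 and 4 gave 1 with DESeq2 (7.15% of genes called). The HPC-2 slope gave 2 with voom (14.4%), 1 with the replicate block (Gpx1) and 0 to 2 leaving out 1 library. In both states HSC against HPC-1 gave 1 with DESeq2, RLE, the share and no shallow libraries, and 2 with voom and without both kinds of library; leaving out 1 library gave 0 to 1 at steady state. HSC against HPC-2 at steady state gave 1 with DESeq2 (10.9% of genes called) and 2 without near-identical libraries. These 2 were Txn1 (0.99, adjusted p = 0.0183 by edgeR) and Prdx1 (1.10, adjusted p = 0.0226). After transplant HSC against HPC-2 gave 2 with DESeq2 (24.8%), 1 with RLE (5.69%) and 1 with the share (3.84%). HPC-1 against HPC-2 at steady state gave 3 with DESeq2 and without near-identical libraries, 2 with either block, 1 without a filter and 0 to 3 leaving out 1 library; after transplant it gave 1 with DESeq2, RLE, the share and no shallow libraries, 3 with voom and 2 without both.

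Txnip changes that reversed were, in log2 units, the HSC slope (-0.046 with DESeq2 and RLE, -0.17 with voom, -0.079 without shallow libraries and without both kinds; -0.068 to 0.17 leaving out 1), the HPC-1 average (0.036 with DESeq2 and RLE, 0.10 and 0.13 as 1 group without and with block, 0.20 without near-identical libraries; -0.17 to 0.16), the HPC-1 slope (-0.045 to 0.22), HPC-1 weeks 3 and 4 and 10 to 16 with the share (-0.14 and -0.024), and the HPC-2 average (0.038 with voom, 0.80 with the replicate block, 0.13 with the share, 0.063 as 1 group with block, 0.12 without shallow and 0.53 without both kinds; -0.39 to 0.42). So did HPC-2 weeks 3 and 4 (0.28 with voom, 0.056 with at least 10 CPM, 1.02 with the replicate block, 0.40 with the share, 0.39 without shallow and 0.85 without both; -0.26 to 0.64), weeks 5 to 8 (0.14 with the replicate block) and weeks 10 to 16 (-0.020 with DESeq2 and RLE), HSC against HPC-2 after transplant (0.038 with the share), and the interaction of HPC-1 and HPC-2 (-0.26 with voom, -0.15 with the replicate block, -0.40 with the share, -0.12 without shallow and -0.37 without both; -0.45 to 0.40). In fits of all libraries, leaving 1 out held the dispersion trend fixed and covered the compared populations. Listed genes had 10 values under 1 CPM, and the part of library depth or complexity in them was not tested.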
